A study of Canis lupus familiaris with 34 samples.

Results

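The ADAMTS genes encode secreted zinc metalloproteinases that carry thrombospondin motifs and work in the extracellular matrix. Canine hemangiosarcoma is a malignant tumor of blood vessel-forming cells, and its cells were set against those of splenic hematoma, a non-malignant lesion, and against other canine tumors. From the family, ADAMTS1, ADAMTS2, ADAMTS4, ADAMTS5, ADAMTS6, ADAMTS7, ADAMTS9, ADAMTS10, ADAMTS12 and ADAMTS14 were taken, and a probe set was read as one of them if the array annotation gives it that symbol and no other. By this rule 9 of the 10 genes were found, with 21 of the 42860 non-control probe sets and out of 15115 genes that have a probe set of 1 symbol. ADAMTS1 had none, and gives no value here. In the dog gene table ADAMTS1 and ADAMTS5 are neighbors with no other protein-coding gene between them.

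RNA levels come from Affymetrix Canine_2 chips, with 1 chip for each sample. The 34 arrays hold 10 hemangiosarcoma lines from the spleen (HSA), 5 osteosarcoma lines from bone (OSA), cultures of 3 splenic hematomas (HEM) and primary cells of 6 diffuse large B cell lymphomas (DLBCL), 6 T-zone lymphomas (TZL), 1 marginal zone B cell lymphoma (MZL), 2 chronic lymphocytic leukemias (CLL) and 1 acute lymphoblastic leukemia (ALL). The labels give neither a treatment nor an age. Of the hemangiosarcoma lines, 6 came from golden retrievers and the others from a Rottweiler, a Golden Retriever x Great Pyrenees cross, a Portuguese Water Dog and a Dalmatian. The hematoma cultures came from the golden retriever Pippin, the Standard Poodle Baxter and the Keeshond Kylie, the osteosarcoma lines all from golden retrievers, and the lymphoid samples from golden retrievers except the acute lymphoblastic leukemia, whose dog was a mix. The spleen cultures were set up to select for endothelial cells and were studied at low passage, and each culture stands for the lesion of 1 dog. The values are log2 intensities, on which 1 unit is a doubling, and the median of an array lay between 5.57 and 5.77.

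The cells were checked against marker genes of cell types. Of 10 endothelial markers, 2 had a mean above the array median in hemangiosarcoma lines and 4 in hematoma cultures. PECAM1 was low in both, at 3.67 ± 0.24 (SD, n = 10) in hemangiosarcoma lines and 3.46 ± 0.05 (SD, n = 3) in hematoma cultures. KDR and ERG were above the median in both. They were at 6.32 and 6.02 in hemangiosarcoma lines, 6.29 and 6.81 in hematoma cultures, and also 6.30 and 6.29 in osteosarcoma lines. Mural and fibroblast markers were above the median for 9 of 11 genes in all 3 cultured groups. Osteoblast markers were above it for 2 of 4 genes in osteosarcoma lines and 0 of 4 in hemangiosarcoma lines. The mean of the lymphocyte markers was 7.74 to 10.16 on the lymphoid arrays and 4.50 to 5.14 on the cultured ones. The mean of the hybridization controls was 9.12 to 9.66 on hemangiosarcoma arrays and 9.81 to 10.68 on osteosarcoma arrays, without overlap. It was 9.31 to 10.05 on hematoma arrays and 9.87 to 11.21 on lymphoid arrays. The 3′ end of the actin control exceeded its 5′ end by 0.39 ± 0.40 (SD, n = 10) in hemangiosarcoma lines, 1.27 ± 0.65 (SD, n = 5) in osteosarcoma lines and -0.26 ± 0.66 (SD, n = 3) in hematoma cultures, and by -1.81 to 5.35 on lymphoid arrays.

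ADAMTS enzymes are grouped by what they cut. ADAMTS2 and ADAMTS14 remove the amino propeptide of fibrillar procollagens, a step that lets collagen assemble into fibers. ADAMTS4, ADAMTS5 and ADAMTS9 cut the large proteoglycans aggrecan and versican, as does ADAMTS1, which is also known in mice and people for restraining blood vessel growth. ADAMTS7 and ADAMTS12 cut cartilage oligomeric matrix protein, and ADAMTS6 and ADAMTS10 act on fibrillin microfibrils and cell contacts. The activity of several of them is held back by tissue inhibitors of metalloproteinases, TIMP3 above all.

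The 9 genes stood at very different places relative to the array median, as the map of levels shows. ADAMTS6 and ADAMTS7 were above the median of their array on 22 and 34 of 34 arrays, and ADAMTS4 on 19. ADAMTS2 and ADAMTS10 were above it on 9 arrays each, ADAMTS12 on 2 and ADAMTS9 on 0. A value near or under the median of an array may hold little signal of the gene itself. Signals of different probe sets are not levels per length, so that the genes are compared with themselves only.

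**Figure D1:**
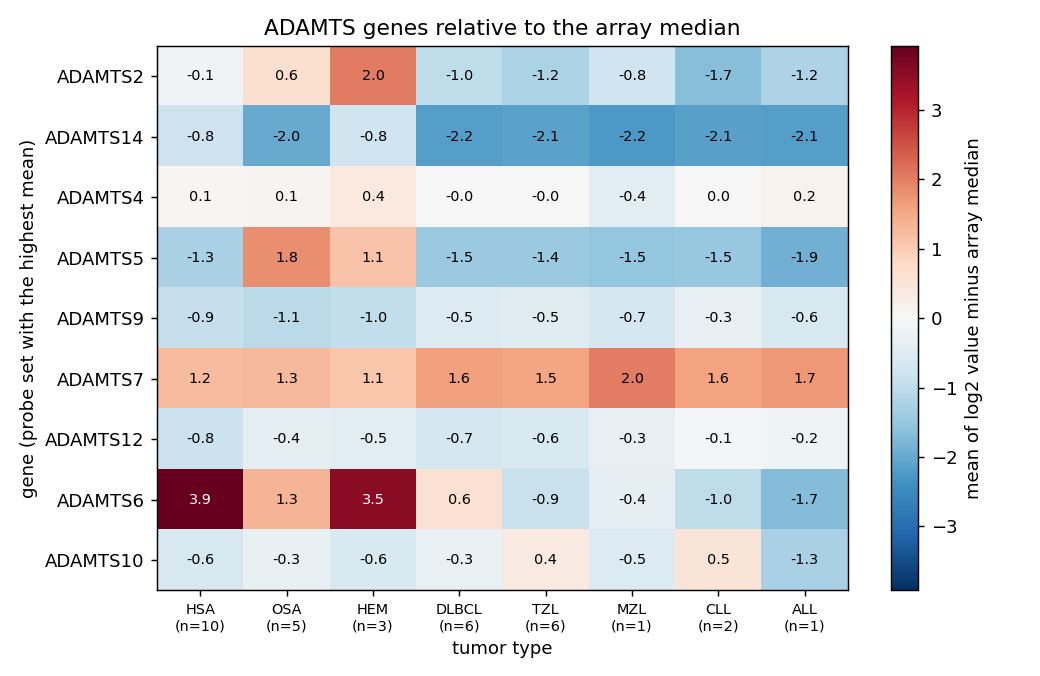
Mean over the arrays of a tumor type (columns, number of arrays in brackets) of the log2 value minus the array median for the highest probe set of each ADAMTS gene (rows), on a color scale in log2 units. ADAMTS6 stands 3.92 above the median in hemangiosarcoma lines and 3.53 above it in hematoma cultures, and ADAMTS14 lies below it in all 8 tumor types.

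Hemangiosarcoma lines were compared with hematoma cultures to find what sets the malignant cells apart from cells of a non-malignant spleen lesion. ADAMTS2 was called lower in hemangiosarcoma lines, with a log2 difference of -2.13. No fold is given, as the mean of these lines relative to the array median was -0.15. ADAMTS5 was called lower as well, but it entered the test only through the hematoma cultures, where it is high. The other 7 genes were not called. A gene was read by its probe set with the highest mean over all 34 arrays. Groups were compared with limma, a linear model that shares variance among probe sets, with Benjamini-Hochberg adjustment over all probe sets tested. Only probe sets above the array median on enough arrays to fill the smaller group entered the test, and the call was made at an adjusted p of 0.1. Of the 9 genes, 5 passed this filter, and 2 were called lower, where 11 of 9761 tested genes were (0.113%). Because of how ADAMTS5 passed the filter, the count of 2 is given as a description. In bulk RNA, fewer cells of a type and less RNA per cell cannot be told apart.

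ADAMTS2, the main amino propeptidase of type I procollagen, ranged in hemangiosarcoma lines from 4.57 (Dal4) to 6.35 (ChadG8) with a median of 5.47, against 7.37 in Pippin, 8.11 in Baxter and 7.43 in Kylie. All 10 hemangiosarcoma lines lay below the lowest hematoma culture, so the groups did not overlap, and 3 of the 10 were above their array median. Those 3 lines were just enough for the filter, which the 3 hematoma cultures would also have met alone. The means were 5.51 ± 0.48 (SD, n = 10) and 7.64 ± 0.41 (SD, n = 3). ADAMTS2 differed by -2.13 on the log2 scale (SE 0.29, 95% CI -2.76 to -1.50, limma adjusted p = 0.0105). An exact two-sided permutation test of this gene alone gave p = 0.0035, and no lower p is possible with 10 against 3. Baxter, the highest culture, weighed on the call: without it the difference was -1.89 and the adjusted p 0.156.

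ADAMTS2 is read by 3 probe sets, of which a pair shares its target sequence and differs in how its probes may match other transcripts. The other probe set of that pair differed by -2.99 (adjusted p = 0.0033), and the one with a target of its own by -2.60 (adjusted p = 0.0020). Each was above the array median in 2 of 10 hemangiosarcoma lines and in all 3 hematoma cultures. Both thus needed the hematoma cultures, where they are high, to pass the filter, and these calls add no support. Without Baxter both were still called, with adjusted p of 0.0702 and 0.0327. Of the probe sets tested, 0.133% were called lower. Over the 18 arrays of cultured cells they correlated with the first at 0.98 and 0.97.

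**Figure D2:**
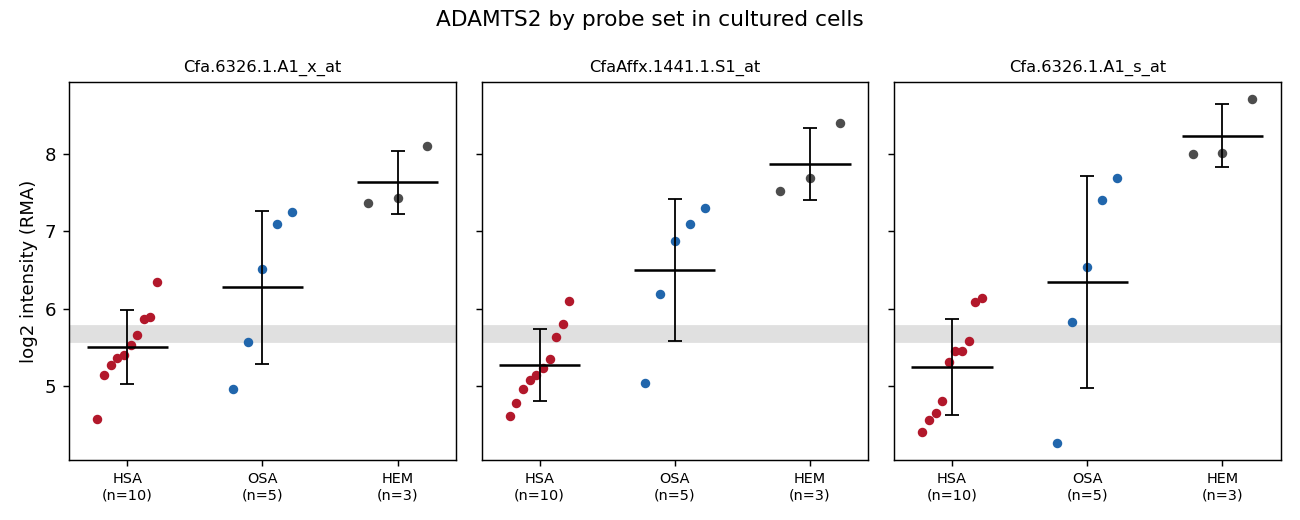
Log2 intensity of the 3 ADAMTS2 probe sets in hemangiosarcoma lines (HSA), osteosarcoma lines (OSA) and hematoma cultures (HEM). Points are arrays, lines the mean with SD, and the gray band the range of array medians. On each probe set the 10 hemangiosarcoma lines lie below the 3 hematoma cultures.

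ADAMTS5, a proteinase of aggrecan and versican and the main aggrecan-degrading enzyme of mouse cartilage, ranged in hemangiosarcoma lines from 4.0 (DD1) to 5.30 (Journey) with a median of 4.21, against 7.24 in Pippin, 6.63 in Baxter and 6.31 in Kylie. No hemangiosarcoma line was above its array's median, and all 3 hematoma cultures were. A gene that passes in this way had to differ, so its call supports nothing by itself, and no fold is given against values under the array median. The means were 4.37 ± 0.42 (SD, n = 10) in hemangiosarcoma lines and 6.73 ± 0.47 (SD, n = 3) in hematoma cultures. The difference of the ADAMTS5 means was -2.36 (SE 0.27, 95% CI -2.95 to -1.77), with a limma adjusted p of 0.0026 that is open to this choice.

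ADAMTS6, tied in people and mice to fibrillin microfibrils and heart valve function, was above the array median in every culture of both groups. Hemangiosarcoma lines ranged from 8.37 (Joey) to 10.32 (ChadG6) with a median of 9.59, against 8.14 in Pippin, 9.02 in Baxter and 10.26 in Kylie. The hematoma cultures spread more widely (SD 1.07, n = 3) than the tumor lines (SD 0.56, n = 10), of which 1 lay above the highest culture. The difference was 0.43 with a 95% CI of -0.46 to 1.32 (adjusted p = 0.739), and turned to -0.07 without Pippin. On the 6 probe sets of ADAMTS6 the differences ran between -0.06 and 0.43, with no call.

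ADAMTS4 differed by -0.26 (95% CI -0.80 to 0.27, adjusted p = 0.737) and by 0.14 without Baxter. ADAMTS7 differed by 0.20 (95% CI -0.11 to 0.50, adjusted p = 0.656). ADAMTS9, ADAMTS10, ADAMTS12 and ADAMTS14 stayed below the filter, with differences of 0.11, 0.02, -0.34 and 0.03 that were given no test. Among them ADAMTS14, the second procollagen propeptidase here, was at 6.20 in Baxter and 3.52 in Kylie, wider apart than the hemangiosarcoma lines, at 4.10 to 5.59.

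The substrates and inhibitors of these enzymes were read from 6 lists. Of their 64 genes on the array, 50 were tested and 1 was called higher, where 0.143% of all tested genes were, at a median difference of -0.01 against 0.04 for all tested genes. TIMP1, a secreted inhibitor of metalloproteinases, was at 14.08 ± 0.69 (SD, n = 10) in hemangiosarcoma lines and 11.64 ± 0.84 (SD, n = 3) in hematoma cultures, a difference of 2.44 (limma adjusted p = 0.0497). In the same list PCSK5, a proprotein convertase, differed by -1.47 and did not pass (adjusted p = 0.636). None of 10 genes of fibrillar procollagens and their processing was called by limma, with 1 at an unadjusted p under 0.05. The furthest apart were PCOLCE and PCOLCE2, enhancers of the carboxyl propeptidase, at 0.90 and 0.89 (adjusted p = 0.292 and 0.518). Of 6 genes of hyalectans and small proteoglycans 0 were called and 1 had an unadjusted p under 0.05. Decorin, DCN, differed by 1.54 (adjusted p = 0.511) and biglycan, BGN, by -0.83 (adjusted p = 0.801).

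Of 15 genes of microfibrils, thrombospondins and nidogens 0 were called by limma and 3 had an unadjusted p under 0.05. NID1, a basement membrane protein, differed by -3.94 (adjusted p = 0.284) and FBLN1, fibulin 1, by 2.97 (adjusted p = 0.431). Neither passed. Of the ADAMTS genes not named above, 5 of 9 had a probe set and 3 were tested, with 0 called and 1 at an unadjusted p under 0.05. ADAMTS3, the third procollagen propeptidase, differed by -0.77 (adjusted p = 0.649) and ADAMTS16 by 0.37 (adjusted p = 0.480). Of the ADAMTS-like proteins, which lack the proteinase domain, 4 were tested and 0 were called, with 0 at an unadjusted p under 0.05. ADAMTSL1 and PAPLN differed by 0.35 and 0.19 (adjusted p = 0.636 and 0.677).

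One mural marker moved together with ADAMTS2 and ADAMTS5. PDGFRB, the platelet-derived growth factor receptor of mural cells and fibroblasts, was at 6.22 ± 0.84 (SD, n = 10) in hemangiosarcoma lines and 8.66 ± 0.46 (SD, n = 3) in hematoma cultures (difference -2.44, limma adjusted p = 0.0734). It was the only one called of 10 mural and fibroblast markers tested. The mean of the 11 markers on the array was 8.42 to 9.90 in hemangiosarcoma lines and 9.73 to 10.34 in hematoma cultures. PDGFRB was picked by the study from these same arrays as well, and its part in the ADAMTS differences was not tested. Without ChadG4 and Dal4, left out together after their values had been seen, ADAMTS2 differed by -2.03 (adjusted p = 0.0109) and the ADAMTS5 means by -2.32.

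Golden retriever hemangiosarcoma lines were next set against osteosarcoma lines, which are cultured cells as well, at an adjusted p of 0.05. ADAMTS6 was 7.21-fold higher in hemangiosarcoma lines, and no other member was called. Of the 9 genes 4 were tested, and the 1 called higher is read against 756 of 9330 tested genes (8.1%). The hybridization controls separated these groups too, and the part of this technical difference was not tested. ADAMTS6 was at 9.35, 10.32, 10.18, 9.44, 10.02 and 9.69 in the golden retriever hemangiosarcoma lines, against 6.07 in OSCA20, 7.49 in OSCA23, 8.20 in OSCA59, 6.36 in OSCA75 and 6.79 in OSCA71. The groups did not overlap. The means were 9.83 ± 0.40 (SD, n = 6) in golden retriever hemangiosarcoma lines and 6.98 ± 0.86 (SD, n = 5) in osteosarcoma lines, a difference of 2.85 (SE 0.36, 95% CI 2.07 to 3.63, limma adjusted p = 0.000872, exact permutation p = 0.0022, the smallest these arrays can give).

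Of the 6 ADAMTS6 probe sets 5 were called higher, where 9.46% of the probe sets tested were. Of these, 3 of the 5 passed the filter through hemangiosarcoma arrays alone and add no support. Another was above the median in all 6 hemangiosarcoma lines but in only 1 of 5 osteosarcoma lines, and adds none either. The 5 had differences of 1.96 to 3.50, and the one below the filter differed by 2.01. The call of the highest probe set, which was above the median on all 11 arrays, was kept when each array in turn was left out (differences of 2.62 to 3.15). With the lines of other breeds added, so that 10 hemangiosarcoma lines entered, ADAMTS6 differed by 2.59 (adjusted p = 0.000128).

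ADAMTS5 ran the other way in these arrays. It was at 4.20, 4.08, 4.95, 4.43, 5.30 and 4.22 in the golden retriever hemangiosarcoma lines, against 7.69 in OSCA20, 8.01 in OSCA23, 9.64 in OSCA59, 6.94 in OSCA75 and 5.18 in OSCA71. OSCA71 lay below Journey, and the other osteosarcoma lines lay above every hemangiosarcoma line. The difference of means was -2.96. ADAMTS5 was above the median on 4 of 11 arrays, 1 short of the filter, and so was not tested in the limma fit. Without OSCA71, the line that overlapped, it passed the filter through the osteosarcoma lines alone, and that value (-3.54) is a description only. The exact two-sided permutation p of this gene alone was 0.0043, unadjusted.

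ADAMTS14 was at 4.60 ± 0.36 (SD, n = 6) in golden retriever hemangiosarcoma lines and 3.70 ± 0.37 (SD, n = 5) in osteosarcoma lines. No array of either group was above its median, so the gene was not tested and its difference of 0.90 is a description. ADAMTS2 differed by -0.50 (95% CI -1.34 to 0.34, adjusted p = 0.399). The osteosarcoma lines spread widely in ADAMTS2, with 7.09 in OSCA20, 6.52 in OSCA23, 7.25 in OSCA59, 5.57 in OSCA75 and 4.97 in OSCA71. ADAMTS4 and ADAMTS7 differed by -0.01 and -0.04 (95% CI -0.43 to 0.40 and -0.33 to 0.26). ADAMTS9, ADAMTS10 and ADAMTS12 were below the filter, at 0.14, -0.21 and -0.49.

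**Figure D3:**
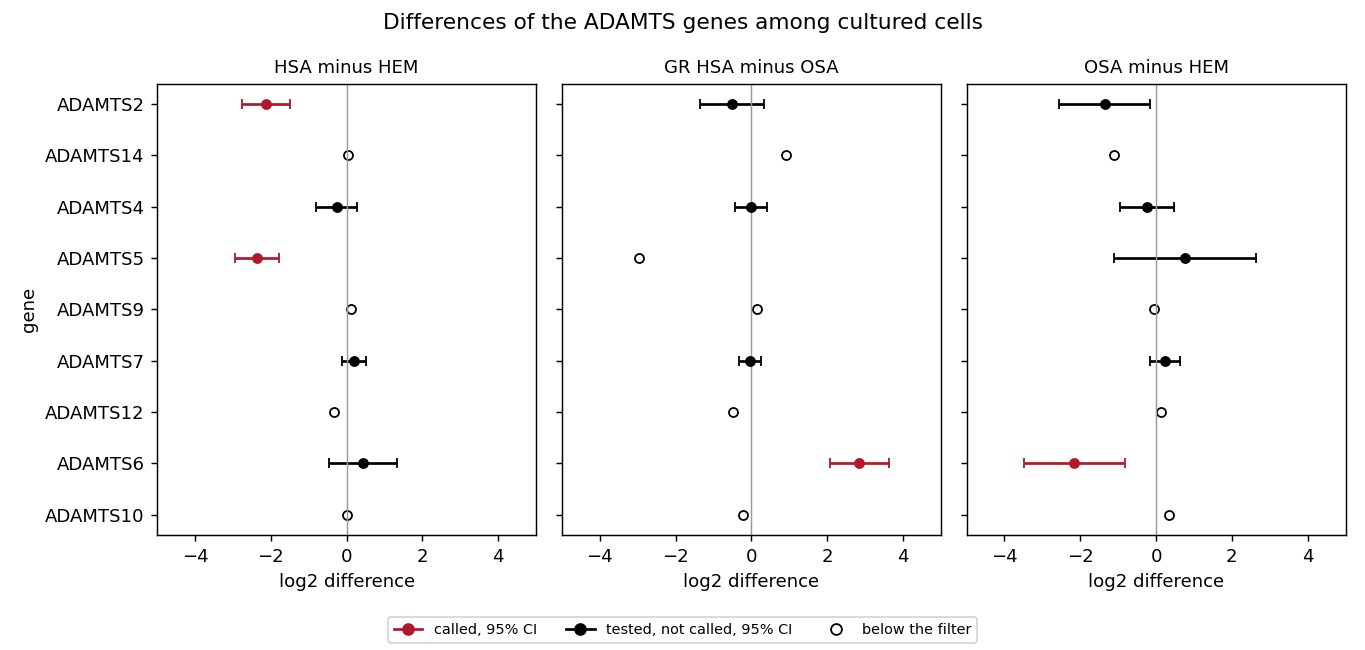
Log2 difference of each ADAMTS gene (rows) among the cultured groups, in hemangiosarcoma minus hematoma (HSA minus HEM), golden retriever hemangiosarcoma minus osteosarcoma (GR HSA minus OSA) and osteosarcoma minus hematoma (OSA minus HEM). Bars are 95% confidence intervals of the limma fit, red marks a call at the threshold of that comparison, and open circles are genes below the filter on low values. ADAMTS2 and ADAMTS5 are called at -2.13 and -2.36 on the left, ADAMTS5 having passed the filter through hematoma arrays alone, and ADAMTS6 at 2.85 and -2.16 in the others.

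Of 47 genes of the 6 lists tested here, 2 were called higher and 3 lower in golden retriever hemangiosarcoma lines, at a median difference of 0.07 against -0.01 for all tested genes. Of all tested genes 8.1% were called higher and 7.1% lower, so the lists held no larger share. HAPLN1, which links aggrecan to hyaluronan, was at 4.33 ± 0.45 (SD, n = 6) in hemangiosarcoma lines and 9.73 ± 0.72 (SD, n = 5) in osteosarcoma lines. The difference was -5.40 (limma adjusted p = 4e-06), but HAPLN1 passed the filter through the osteosarcoma lines alone, so its call supports nothing by itself. SEMA3C, a secreted semaphorin that ADAMTS1 can cut, was higher by 2.98 (adjusted p = 0.0147). The inhibitors divided: TIMP1 was higher by 1.37 (adjusted p = 0.0033), while TIMP3 differed by -1.79 (adjusted p = 0.0087) and TIMP2 by -1.50 (adjusted p = 0.0168). Of 9 genes of procollagens and their processing, 0 were called by limma and 1 had an unadjusted p under 0.05. Of 10 mural and fibroblast markers tested, 5 had positive and 5 negative differences, with a median of 0.01, and THY1 (-2.91) and PDGFRB (-2.70) were called. Of 4 endothelial markers tested ENG was called (-3.63). The osteosarcoma lines, at 7.38 to 8.54, were alone enough for ENG to pass the filter, so its value is a description. The part of these markers in the ADAMTS differences was not tested.

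Osteosarcoma lines were set against hematoma cultures to complete the cultured pairs, at an adjusted p of 0.1. ADAMTS6 was 4.47-fold lower in osteosarcoma lines, at 6.98 ± 0.86 (SD, n = 5) against 9.14 ± 1.07 (SD, n = 3) in hematoma cultures. Of the 9 genes 5 were tested, and the 1 called lower is read against 598 of 9649 tested genes (6.2%). The difference was -2.16 (SE 0.59, 95% CI -3.49 to -0.83, limma adjusted p = 0.0660), and the exact permutation p was 0.0536, where 5 and 3 arrays allow no less than 0.0179. OSCA59, at 8.20, overlapped Pippin, at 8.14. The other 5 probe sets of ADAMTS6 differed by -1.65 to -3.14 without overlap. Nearly all their osteosarcoma values lay under the array median, so these differences are descriptions. The call was lost without OSCA23 (adjusted p = 0.105), OSCA75 (0.124), Baxter (0.162) or Kylie (0.214).

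ADAMTS2 was lower in all 5 osteosarcoma lines than in any hematoma culture, by 1.36 in the means, but was not called (95% CI -2.56 to -0.16, adjusted p = 0.148). It was called without OSCA20 (-1.56, adjusted p = 0.0975). ADAMTS5 differed by 0.77 with a 95% CI of -1.12 to 2.65 (adjusted p = 0.583). ADAMTS7 lay higher in every osteosarcoma line than in any hematoma culture, by 0.25 in the means (95% CI -0.15 to 0.64, adjusted p = 0.394). ADAMTS4 differed by -0.24 (95% CI -0.95 to 0.47). ADAMTS9, ADAMTS10, ADAMTS12 and ADAMTS14 were below the filter, at -0.04, 0.35, 0.12 and -1.12. This comparison shares its arrays with the 2 before it, so the 3 sets of values are not independent of each other.

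Of 48 genes of the 6 lists tested, 5 were called higher and 3 lower in osteosarcoma lines. Of all tested genes 5.49% were called higher and 6.2% lower, so the count of 3 is near that share. HAPLN1 was higher by 5.16 (adjusted p = 0.0036), PCOLCE by 1.52 (0.0395), and among inhibitors and clearance genes TIMP1 by 1.34 (0.0728), the cell surface proteoglycan SDC4 by 1.28 (0.0345) and the membrane proteinase MMP17 by 0.82 (0.0822). NID1 differed by -3.37 (0.0706), SEMA3C by -2.78 (0.0760) and LTBP2, a microfibril protein, by -2.56 (0.0843), each p being an adjusted p of limma. The osteosarcoma lines alone were enough for HAPLN1 to pass the filter, so its value is a description.

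Golden retriever hemangiosarcoma lines were also compared with all 21 other tumors and with the 16 leukemias and lymphomas alone, both at an adjusted p of 0.001. ADAMTS6 was higher in hemangiosarcoma lines in both, and no other member was called. Among the lymphoid samples 4 of 16 had ADAMTS6 above the array median, too few for the filter. Against them it passed only through the 6 hemangiosarcoma lines, so that call and its adjusted p support nothing by themselves. No fold is given in either comparison. Against all other tumors 5 of the 9 genes were tested, and the 1 called higher is read against 516 of 10491 genes (4.92%). Against leukemia and lymphoma 4 were tested and 1 was called higher, where 1457 of 10232 genes were (14.2%), a count given as a description. ADAMTS6 ranged from 9.35 to 10.32 (median 9.86) in golden retriever hemangiosarcoma lines, against 3.98 to 8.20 (median 5.35) in the other tumors. The difference was 4.12 (SE 0.55, 95% CI 3.00 to 5.24, limma adjusted p = 4.48e-06) against all other tumors and 4.52 (SE 0.50, 95% CI 3.49 to 5.54, adjusted p = 6.8e-08) against leukemia and lymphoma. The lymphoid samples were primary cells and the hemangiosarcoma lines cultured, so that culture and tumor type cannot be told apart here.

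**Figure D4:**
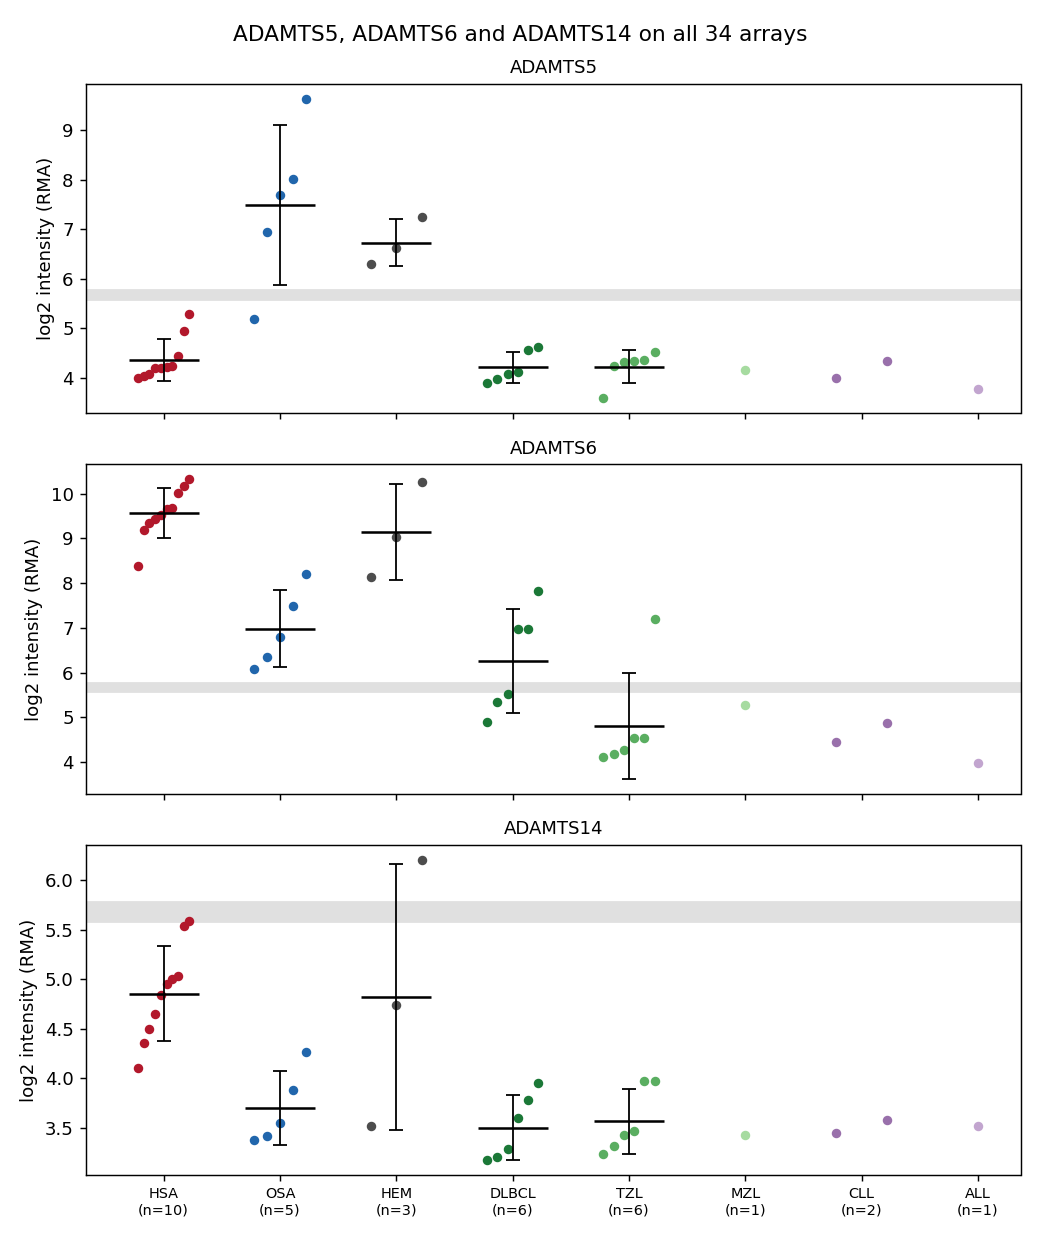
Log2 intensity of ADAMTS5, ADAMTS6 and ADAMTS14 on all 34 arrays by tumor type. Points are arrays, lines the mean with SD where a group has at least 3 arrays, and the gray band the range of array medians. ADAMTS6 is at 8.37 or above in all 10 hemangiosarcoma lines, and ADAMTS5 is above the band in all 3 hematoma cultures and 4 of 5 osteosarcoma lines only.

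ADAMTS2 and ADAMTS14 were higher in every golden retriever hemangiosarcoma line than in any leukemia or lymphoma. ADAMTS2 was at 5.78 ± 0.34 (SD, n = 6) in these lines and 4.50 ± 0.37 (SD, n = 16) in the lymphoid samples, and ADAMTS14 at 4.60 ± 0.36 (SD, n = 6) and 3.52 ± 0.27 (SD, n = 16). Both lay below the filter and were not tested: ADAMTS14 was above the array median on 0 of these arrays and ADAMTS2 on 0 of 16 lymphoid arrays, so the order of such low values is a description. Against all other tumors ADAMTS2 was tested and differed by 0.86 (95% CI 0.06 to 1.65, adjusted p = 0.0793).

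The cartilage matrix proteinase ADAMTS7 lay lower in golden retriever hemangiosarcoma lines than in lymphoid samples, at 6.90 ± 0.19 (SD, n = 6) against 7.28 ± 0.26 (SD, n = 16). Its difference of -0.38 did not pass 0.001 (95% CI -0.66 to -0.11, adjusted p = 0.0190), nor did that of -0.30 against all other tumors (95% CI -0.58 to -0.03, adjusted p = 0.0752). ADAMTS10, in which a mutation causes glaucoma in beagles, differed by -0.43 and -0.51 from all other tumors and from lymphoid samples (adjusted p = 0.246 and 0.192). ADAMTS4 differed by 0.08 and 0.11 (adjusted p = 0.641 and 0.512). ADAMTS5 was low on both sides of the comparison with leukemia and lymphoma, at 4.53 ± 0.49 (SD, n = 6) in hemangiosarcoma lines and 4.18 ± 0.29 (SD, n = 16) in lymphoid samples, with no array above its median. ADAMTS9 and ADAMTS12 were below the filter in both comparisons, at -0.30 and -0.39 against all other tumors and -0.44 and -0.36 against lymphoid samples.

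The 6 lists were read in the same comparisons. In both, the 6 hemangiosarcoma lines alone were enough for a gene to pass the filter, so the counts below are descriptions. Against leukemia and lymphoma 30 of 42 tested genes of the 6 lists were called higher and 0 lower, at a median difference of 3.63 against -0.13 for all tested genes, of which 14.2% were called higher. All 8 tested genes of procollagens and their processing were among them, COL5A2 by 9.28, COL1A2 by 8.11, COL1A1 by 7.91 and COL5A1 by 6.92. Versican, VCAN, was higher by 6.99, LUM by 8.50, DCN by 8.08 and BGN by 3.77. Of the microfibril, thrombospondin and nidogen list 9 of 12 were called, among them THBS1, TFPI2, SEMA3C and THBS2 by 7.60, 7.59, 6.89 and 6.80. Of the inhibitors, activators and clearance list 9 of 11 were called, with FN1 higher by 6.70, TIMP1 by 5.79, SDC4 by 4.05 and LRP1, an uptake receptor for these proteinases, by 3.48. Of the other ADAMTS genes and the ADAMTS-like proteins, 0 of 2 and 0 of 3 were called by limma, with 0 and 1 at an unadjusted p under 0.05. Against all other tumors 8 of 48 list genes were called higher and 0 lower, where 4.92% and 2.32% of all tested genes were. They were COL5A2 (7.25), COL3A1 (5.52), VCAN (5.66), TFPI2 (6.23), SEMA3C (5.96), NID2 (4.58), LTBP2 (3.94) and the proprotein convertase PCSK7 (1.35), each value being the log2 difference.

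Within the lymphomas, diffuse large B cell lymphoma was compared with T-zone lymphoma at an adjusted p of 0.05. Of the 9 genes 3 were tested and 0 were called by limma, nor had any an unadjusted p under 0.05, while 1815 of 9237 tested genes were called (19.6%). ADAMTS10 differed by -0.63 (95% CI -1.27 to 0.02, adjusted p = 0.175), ADAMTS7 by 0.07 (95% CI -0.33 to 0.47) and ADAMTS4 by 0.01 (95% CI -0.34 to 0.35). ADAMTS6 was below the filter. It was at 5.53, 7.83, 6.97, 6.97, 5.35 and 4.90 in diffuse large B cell lymphomas, against 4.54, 4.29, 7.21, 4.11, 4.19 and 4.54 in T-zone lymphomas. The groups overlapped through the T-zone lymphoma at 7.21, and the exact two-sided permutation p of the difference of 1.45 was 0.0606. ADAMTS2, ADAMTS5, ADAMTS9, ADAMTS12 and ADAMTS14 were below the filter too, with differences of 0.22, -0.02, -0.07, -0.09 and -0.06. Of 25 tested list genes 1 was called higher and 2 lower in diffuse large B cell lymphoma, where 10.1% and 9.54% of all tested genes were. FBN1, fibrillin 1, was higher by 3.16 (adjusted p = 0.0044), and COMP, cartilage oligomeric matrix protein, and TIMP1 differed by -1.69 and -2.43 (adjusted p = 0.0028 and 0.0148).

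Over the tumor types, the order of the group means was described for those with at least 2 arrays. ADAMTS2 was highest in hematoma cultures (7.64), then osteosarcoma (6.28) and hemangiosarcoma lines (5.51), and only the first step was free of overlap. ADAMTS5 was highest in osteosarcoma lines (7.49), which overlapped hematoma cultures (6.73), and the hematoma cultures stood clear of hemangiosarcoma lines (4.37), which overlapped the lymphoid groups. ADAMTS6 ran from hemangiosarcoma lines (9.57) through hematoma cultures (9.14), osteosarcoma lines (6.98), diffuse large B cell lymphoma (6.26) and T-zone lymphoma (4.81) to chronic lymphocytic leukemia (4.66), each overlapping the next. For ADAMTS4, ADAMTS7, ADAMTS9, ADAMTS10, ADAMTS12 and ADAMTS14 every neighbor in the order overlapped. A chronic lymphocytic leukemia, Maddle, had the highest ADAMTS10 value of all arrays, 7.32, and the other of that type was at 4.99.

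Among the 10 hemangiosarcoma lines, the 5 genes past the filter against hematoma gave 10 pairs, and none was correlated after adjustment. ADAMTS2 and ADAMTS5 had the highest Pearson r, 0.62 (permutation p = 0.0701, adjusted p = 0.396), with a Spearman rho of 0.65 (permutation p = 0.0484, adjusted p = 0.398). Without Dal4 and ChadG8, the lines farthest from the median of ADAMTS2, r was 0.62. The other pairs had r from -0.30 to 0.58.

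The genes whose pattern over the 18 cultured arrays was most like each member were listed by Pearson r, as a description. These arrays fall into 3 groups, so that a shared difference between groups raises r. For ADAMTS2 they were ASPN, a collagen-binding small proteoglycan (0.87), KCNE4 (0.83) and TNFRSF14 (0.82). For ADAMTS5 they were NAALAD2 (0.94), ELN, the elastin gene (0.90), and SELENBP1 (0.89). For ADAMTS6 they were SRPX2 (0.89), EREG, a ligand of the epidermal growth factor receptor (0.88), and AHI1 (0.87). For ADAMTS4 they were CPA6, AVPR1A and CORO1A (0.81, 0.80 and 0.75), and for ADAMTS7 RHOV, NRROS and TMC1 (0.91, 0.90 and 0.88).

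Probe sets of a gene did not all follow each other. Over the 18 cultured arrays the 5 further probe sets of ADAMTS6 correlated with the first at 0.92 to 0.97. The values were 0.59 for ADAMTS7, 0.64 for ADAMTS10, 0.68 and 0.43 for ADAMTS12 and 0.19 for ADAMTS9. ADAMTS4, ADAMTS5 and ADAMTS14 were read by 1 probe set each.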

How the data were processed

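RNA of 34 canine samples had been hybridized to Affymetrix Canine_2 chips. The authors deposited log2 values from RMA, a method that subtracts background, equalizes the distributions of the chips and reduces each probe set to 1 value. The submitters' processing notes name RMA and affy, and versions are not given in the sources used here. Forcing unlike tissues to 1 distribution can shift differences between them. Of 43035 probe sets 175 controls were dropped, and nothing else was normalized. Of 29254 probe sets with 1 symbol, 27680 matched the dog gene table by gene number.

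Groups follow the tumor type and breed labels, and each comparison was fitted on its own arrays with limma 3.58.1 in R 4.3.3. The genes and lists were chosen with earlier results of these data known. The study had itself picked ADAMTS2 and ADAMTS5 from these arrays, so their difference between hemangiosarcoma and hematoma is not independent evidence. The same holds for PDGFRB, TIMP1, KCNE4, TNFRSF14 and NAALAD2, which stand in the study's list too. All members are named in every comparison. Of a list, the text names up to 4 genes that passed, by largest difference, and in the comparison with hematoma up to 2 where fewer than 2 passed. Exact tests used every regrouping of the arrays, and correlations 100000 permutations. In simulated data for hemangiosarcoma against hematoma (23292 probe sets), 48% of the 1-unit and 84% of the 2-unit log2 changes were recovered, and 15 of 147 calls were false.

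Alternatives were no filter, a stricter filter, a robust prior with trend, centered or quantile-normalized arrays, other probe set choices, all 34 arrays in 1 fit, array weights, other sample sets and leaving out each array. The number of arrays limits the precision. The study reports that 1 sample was run on 2 chips, but the labels name a different dog for each of the 34 arrays. The p values measure only the spread between these arrays. Python 3.11.15 and matplotlib 3.10.9 made the figures.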

Additional observations from a re-analysis of the deposited data

Results flagged for a closer look

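In each group of 4 to 10 arrays, the highest and the lowest value of each of the 9 genes was compared with its nearest neighbor. Of 36 combinations of gene and group, 2 had an array that stood apart by Dixon's test at the 95% level, where chance marks about 1 in 20. Both were in T-zone lymphoma (n = 6). ADAMTS6 was at 7.21 in Rose, and the nearest of the other 5 was at 4.54, so that the gap took 0.86 of the whole range, above the critical 0.625. ADAMTS5 was at 3.59 in Thunder, with the nearest at 4.24 and a gap of 0.70 of the range. Without Rose, ADAMTS6 differed by 1.93 between diffuse large B cell lymphoma and T-zone lymphoma, against 1.45 with it.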

How the results depend on the processing

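Counts of called members moved as follows. With no filter they were 2 against all other tumors, 3 against osteosarcoma and 3 against leukemia and lymphoma, for golden retriever hemangiosarcoma. For osteosarcoma against hematoma they were 2 with all 34 arrays in 1 fit and 2 with array weights. Leaving out 1 array gave 1 to 2 for hemangiosarcoma against hematoma (1 without Baxter), 1 to 2 against osteosarcoma (2 without OSCA71) and 0 to 2 for osteosarcoma against hematoma (0 without OSCA23, OSCA75, Baxter or Kylie, 2 without OSCA20). The other 50 counts under other settings stayed within 1.5 times the main count. Apart from leaving out arrays, 480 values of single members kept direction and call, 7 gained a call and 8 changed sign.

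The sign changes were all of differences near 0. For hemangiosarcoma against hematoma, ADAMTS10 and ADAMTS14 were -0.024 and -0.010 on centered arrays and -0.049 and -0.026 after quantile normalization, and by the mean of their probe sets ADAMTS9 and ADAMTS10 were -0.018 and -0.055. For diffuse large B cell against T-zone lymphoma, that mean gave -0.042 for ADAMTS7 and 0.017 for ADAMTS12. The causes were not tested.

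Leaving out 1 array turned these differences. Against hematoma, hemangiosarcoma ranged from -0.484 to 0.141 for ADAMTS4, -0.069 to 0.993 for ADAMTS6, -0.133 to 0.102 for ADAMTS10 and -0.616 to 0.722 for ADAMTS14. Golden retriever hemangiosarcoma ranged for ADAMTS4 from -0.038 to 0.145 against all other tumors, -0.129 to 0.063 against osteosarcoma and -0.0094 to 0.174 against leukemia and lymphoma, and for ADAMTS7 from -0.098 to 0.0018 against osteosarcoma. Osteosarcoma against hematoma ranged from -0.460 to 0.165 for ADAMTS4, -0.108 to 0.016 for ADAMTS9 and -0.0022 to 0.271 for ADAMTS12. Diffuse large B cell against T-zone lymphoma ranged from -0.060 to 0.066 for ADAMTS4, -0.145 to 0.045 for ADAMTS5, -0.015 to 0.167 for ADAMTS7, -0.178 to 0.021 for ADAMTS12 and -0.154 to 0.017 for ADAMTS14. Among hemangiosarcoma lines, r of ADAMTS2 and ADAMTS4 ranged from -0.153 to 0.090.

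ADAMTS9, ADAMTS12 and ADAMTS14 lay under the array median on nearly all arrays, which limits what can be read from them. No paired analysis was possible, because the labels name a different dog for each array and no dog name is shared between groups.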

Other observations

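ADAMTS3, a procollagen propeptidase like ADAMTS2 and ADAMTS14, was read by a probe set of its own. It was at 4.84 ± 0.87 (SD, n = 6) in golden retriever hemangiosarcoma lines and 3.46 ± 0.17 (SD, n = 5) in osteosarcoma lines, and lay below the filter in that comparison.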
